A study of Mus musculus with 62 samples.

Results

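White adipose tissue of mice that carried melanoma cells causing cachexia (CAC) was compared with that of mice carrying melanoma cells that do not (NCAC), 2 weeks after injection, the earliest time in the series. The 5 CAC and 5 NCAC libraries were chosen by the arm and week in their column names and descriptions and make up 10 of the 62 libraries of the series. Mock-injected mice of the same week (Con, 5 libraries) and the 32 CAC and NCAC libraries of weeks 4, 6 and 8 were used beside them. All mice were female and 2 months old. The series record names NCI Ath/nude mice and the sample labels name C57BL6/J, and this conflict was not settled here. The treatment tag reads cachectic melanoma cells for all 62 samples, mock and NCAC included, so the arm was taken from the description. Neither melanoma line is named in the labels, and the fat depot is not stated. Replicates are called biological, without saying whether each is 1 mouse, so a p-value measures the spread between these samples.

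Cachexia is the wasting of fat and muscle that accompanies some tumours, and white fat takes part in it through the release of stored triglyceride, lower leptin and, in some models, production of acute phase proteins. A tumour that grows without causing wasting serves as a control for the presence of a tumour. White fat is a mixture of adipocytes, stromal progenitors, vessels and immune cells, and in female mice different pads border the uterus, bladder or mammary gland. Athymic nude mice lack most T cells but keep natural killer (NK) cells, B cells and myeloid cells.

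Levels are given as TPM, transcript abundance that scales every library to the same sum and corrects for transcript length. Values in a list run from replicate 1 to replicate 5, and replicates of the same number in different arms were not treated as pairs. Adipocyte genes marked all libraries as fat, with the adiponectin gene Adipoq at 2337 to 4697 TPM in CAC and 3406 to 5200.3 TPM in NCAC and the adipsin gene Cfd at 13487 to 40339 TPM in CAC and 14788 to 29203 TPM in NCAC. T cell markers summed to 1.66 to 11.5 TPM in CAC and 1.47 to 4.88 TPM in NCAC, and the T cell receptor component Cd3e was listed at 0 in 4 of 5 CAC and 2 of 5 NCAC libraries. The share of TPM from the mitochondrially encoded genes was 30.7 ± 9.15% in CAC, 32.9 ± 6.77% in NCAC and 34.1 ± 6.48% in mock tissue (SD, n = 5 each; CAC against NCAC, exact permutation test, two-sided p = 0.690, with 0.00794 the smallest p that 5 against 5 allows).

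CAC libraries 1 and 5 stood apart from the other 8. On the first principal component of log2(TPM + 1), which held 69.6% of the variance, they lay at 86.9 and 120, against -68.1 to 34.0 for the others. The libraries had 13918 and 14470 symbols at 1 TPM or more, against 11783 to 12758 in CAC 2 to 4 and 11962 to 13325 in NCAC. Genes of uterine epithelium, a list added after the values were seen, summed to 1319, 25.03, 2.93, 21.0 and 1397 TPM in CAC, 2.46, 26.1, 14.4, 39.0 and 15.9 TPM in NCAC and 134, 4.75, 3.90, 3.85 and 10.3 TPM in mock tissue. Mesothelial markers summed to 876, 194, 29.1, 168 and 1433 TPM in CAC, against 82.5, 173, 160.0, 264 and 149.8 TPM in NCAC. That list includes the epithelial cadherin Cdh1 and the keratins Krt8, Krt18 and Krt19. Smooth muscle and pericyte markers summed to 7003, 865, 304, 887 and 6951 TPM in CAC, against 317, 647, 1004, 5174 and 343 TPM in NCAC, where replicate 4 was also high. Urothelial markers, the genes of bladder lining, divided the libraries differently, at 17.1, 182, 1.92, 144 and 326 TPM in CAC and 5.87, 189, 11.9, 19.4 and 8.94 TPM in NCAC. The part of these transcripts in the results below was not tested. Values without CAC 1 and 5, a choice made after the values were seen, are therefore given beside the main ones for most results. NCAC 4 was kept in that fit. In bulk tissue, fewer cells of a type and less RNA per cell cannot be told apart.

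**Figure D1:**
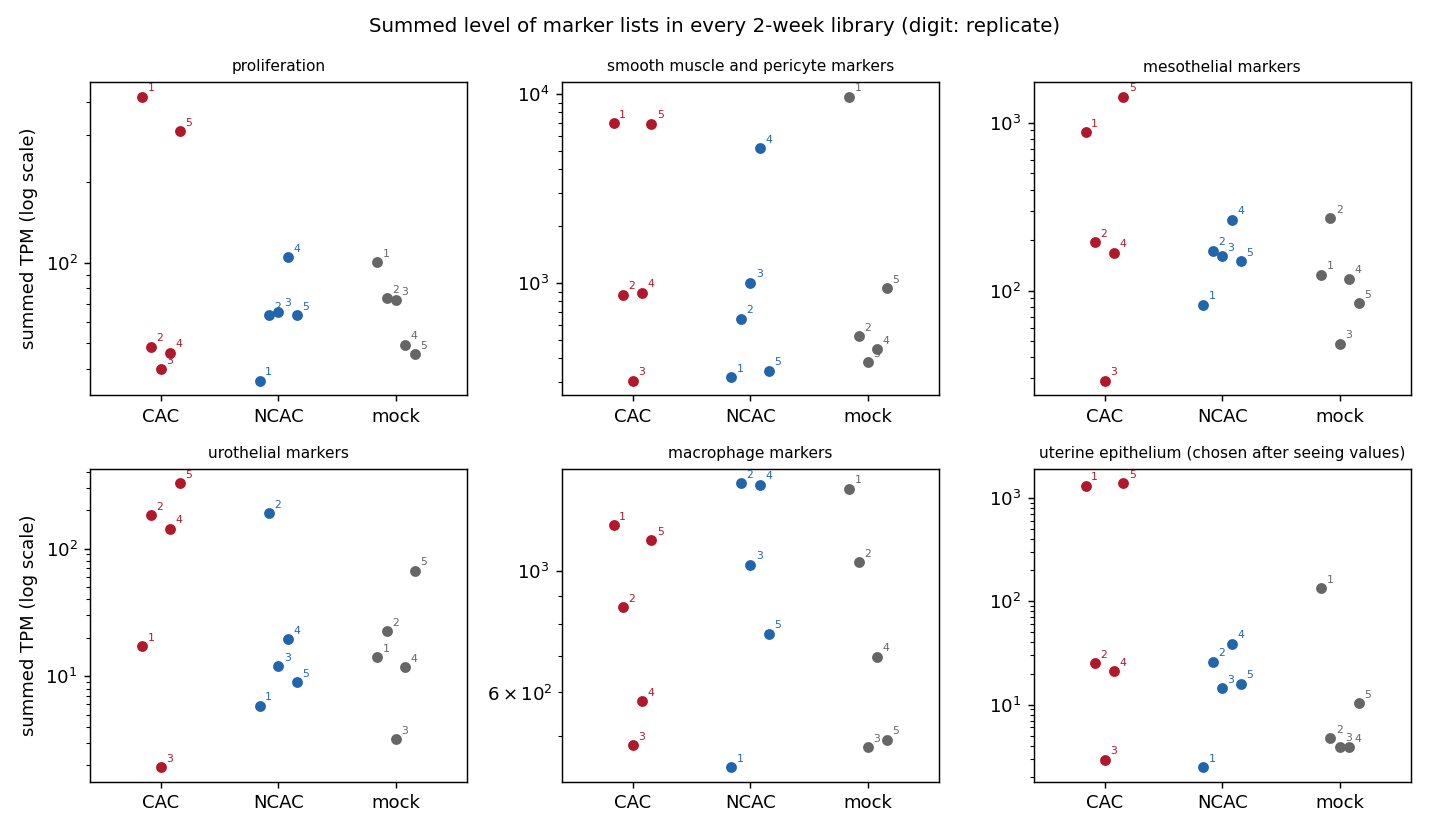
Summed TPM (log scale) of marker lists in each library at 2 weeks, with CAC left, then NCAC, then mock (Con), and replicate numbers beside the points. CAC libraries 1 and 5 lie above the other CAC libraries in proliferation (419 and 311 TPM) and in mesothelial markers (876 and 1433 TPM).

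No gene passed the test between CAC and NCAC fat at 2 weeks. Of 14572 genes tested with limma on log2(TPM + 1), 0% were called higher and 0% lower at an adjusted p under 0.05, and the smallest adjusted p was 0.922. Without the adjustment, 192 genes (1.32%) were higher and 336 (2.31%) lower at a p under 0.05, together 528 (3.62%). The CAC and NCAC libraries did not overlap in 33 genes with CAC above (0.226%) and 78 with CAC below (0.535%), together 111 (0.762%). The median gene had a log2 difference of 0.10 and a standard error of 0.26. With CAC 1 and 5 left out, 0 of 14569 genes were called (smallest adjusted p = 0.595), 126 (0.865%) were higher and 578 (3.97%) lower without the adjustment, together 704 (4.83%), and the median difference was -0.16. Of the genes under 0.05 before adjustment, 211 were shared in direction by both fits, 40.0% of the 528 and 30.0% of the 704. The genes below are accordingly given by their values, intervals and overlap, and none of their differences passed the adjusted threshold. Many were chosen for their small p or lack of overlap, so their separation and intervals describe them and are no further support.

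**Figure D2:**
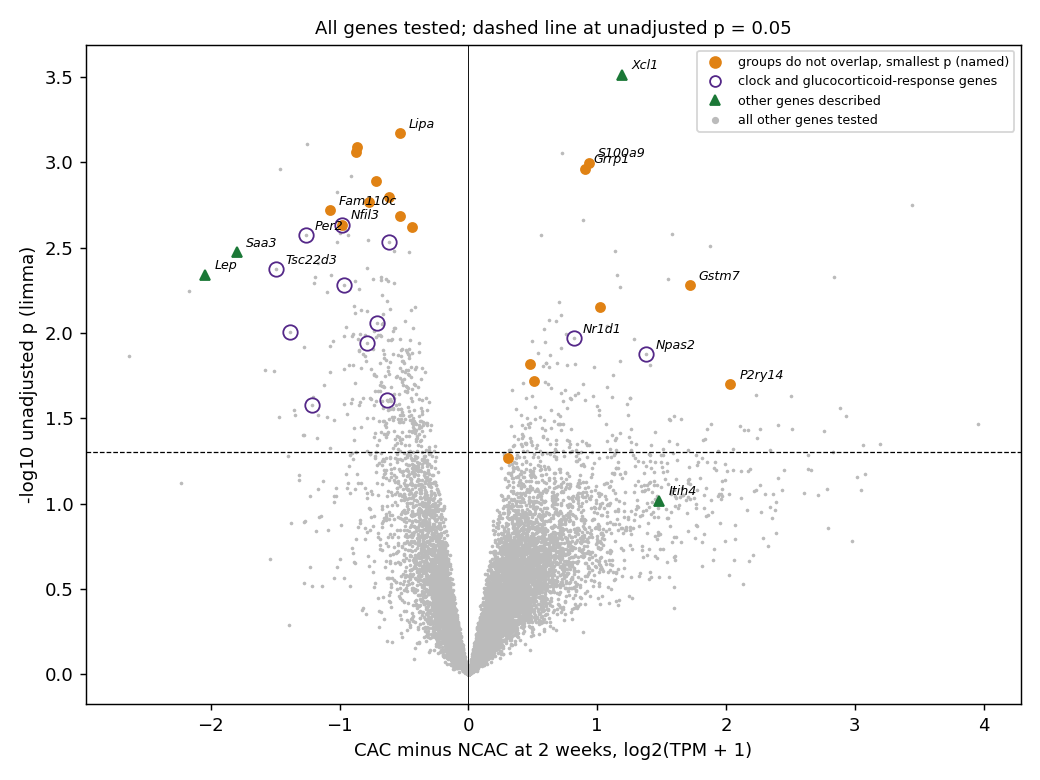
Each point is 1 of the 14572 genes tested, with the log2 difference between CAC and NCAC fat at 2 weeks on the x axis and -log10 of the unadjusted limma p on the y axis. Xcl1 stands highest, most of the clock and glucocorticoid-response genes shown lie on the negative side, and no gene passed the adjusted threshold.

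The gene with the smallest p was Xcl1 (chr1:164931644-164935527, minus strand, GRCm38), which encodes the chemokine lymphotactin, made by NK cells and activated T cells. It had 2.95, 2.08, 2.21, 1.76 and 4.81 TPM in the CAC libraries, against 0.569, 0.674, 0.789, 0.717 and 0.232 TPM in the NCAC libraries. Every CAC library was above every NCAC library, and the log2 difference was 1.20 ± 0.23 (SE; 95% interval 0.69 to 1.70; limma adjusted p = 0.922). The mock libraries had 1.97, 0.240, 1.77, 1.69 and 1.49 TPM, so 4 of the 5 mock libraries also lay above all NCAC libraries. Without CAC 1 and 5 the log2 difference was 0.93 ± 0.18 (SE). Ncr1, the NK cell receptor NKp46, was also separate in the 2 arms, with 4.13, 4.05, 3.28, 3.36 and 5.41 TPM in the CAC libraries, against 1.66, 1.45, 3.21, 2.64 and 2.52 TPM in the NCAC libraries and a log2 difference of 0.63 ± 0.22 (SE), or 0.49 ± 0.23 without CAC 1 and 5. The granule protease Gzmb ranged from 0.172 to 2.29 TPM in CAC and 0.0829 to 0.599 TPM in NCAC. All 5 tested NK cell markers had a positive difference, 1 of them at an unadjusted p under 0.05 (background 1.32%), with a median of 0.32 beside 0.10 for all genes. With CAC 1 and 5 left out, 2 were positive and 3 negative (Gzma, Prf1 and Nkg7), with a median of -0.10 beside -0.16. Gzmb was then at 0.04 ± 0.18.

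S100a9 (chr3:90692632-90695721, minus strand), a subunit of the calprotectin complex of neutrophils and monocytes, had 5.46, 5.47, 7.36, 8.04 and 4.81 TPM in the CAC libraries, against 2.62, 2.03, 2.26, 3.35 and 3.60 TPM in the NCAC libraries. Here too the arms did not overlap, with a log2 difference of 0.94 ± 0.21 (SE; 95% interval 0.47 to 1.40; limma adjusted p = 0.922), and 1.08 ± 0.22 (SE) without CAC 1 and 5. Mock fat had 15.9, 17.2, 5.42, 7.22 and 3.74 TPM, which put all 5 mock libraries above the NCAC libraries. The summed neutrophil markers were 14.8, 10.1, 12.4, 13.3 and 15.9 TPM in CAC, against 5.88, 8.60, 7.55, 7.86 and 9.92 TPM in NCAC. In mean log2(TPM + 1) the arms overlapped, at 0.865 to 1.21 in CAC and 0.620 to 0.895 in NCAC. Of 4 neutrophil markers tested, S100a9 alone was under 0.05 before adjustment (background 1.32%), and 3 differences were positive, with a median of 0.29. When CAC 1 and 5 were left out, 2 were positive and 2 negative, with a median of 0.03 beside -0.16 for all genes. Retnlg, a neutrophil secreted factor, overlapped at 0.658 to 6.53 TPM in CAC and 0.193 to 2.99 TPM in NCAC, and its difference without those libraries was -0.16 ± 0.41.

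Other genes separate between the arms with CAC above, taken by smallest p among those with at least 5 TPM in the higher arm, included Grrp1, Gstm7, Snhg8, Khk, Zfp787, P2ry14 and Arpc1b. Grrp1 had 14.6, 12.1, 9.61, 13.7 and 20.4 TPM in the CAC libraries, against 5.32, 7.01, 7.76, 7.50 and 6.94 TPM in the NCAC libraries, a log2 difference of 0.90 ± 0.21 (SE) and 0.69 ± 0.19 without CAC 1 and 5. Gstm7, a glutathione transferase, had 100.1, 13.8, 13.8, 21.3 and 55.8 TPM in the CAC libraries, against 6.91, 8.33, 9.57, 8.47 and 8.83 TPM in the NCAC libraries. Its difference was 1.72 ± 0.49 with all libraries and 0.85 ± 0.19 without CAC 1 and 5, the libraries with the highest values. P2ry14, a receptor for UDP-sugars, followed the same libraries, with 29.8, 1.52, 2.06, 2.26 and 32.1 TPM in the CAC libraries, against 0.535, 0.827, 0.865, 1.35 and 0.818 TPM in the NCAC libraries, a difference of 2.03 ± 0.75 and 0.66 ± 0.19 without those libraries. Snhg8, a small nucleolar RNA host gene, ranged from 35.0 to 108 TPM in CAC and 23.1 to 34.9 TPM in NCAC. Khk, the ketohexokinase of fructose metabolism, ranged from 21.3 to 37.7 TPM in CAC and 18.4 to 19.7 TPM in NCAC. For Zfp787, a zinc finger protein, the ranges were 9.19 to 17.6 TPM in CAC and 7.70 to 8.59 TPM in NCAC. For Arpc1b, a subunit of the actin-branching Arp2/3 complex, they were 97.3 to 110.2 TPM in CAC and 62.5 to 96.9 TPM in NCAC.

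Among the genes with CAC below NCAC, the smallest p was that of Lipa (chr19:34492318-34527474, minus strand), the lysosomal acid lipase that cleaves cholesterol esters and triglycerides. Lipa had 39.0, 41.3, 37.1, 44.1 and 41.4 TPM in the CAC libraries, against 58.3, 60.0, 53.5, 65.8 and 58.5 TPM in the NCAC libraries. The arms did not overlap, the log2 difference was -0.53 ± 0.11 (SE; 95% interval -0.78 to -0.28; limma adjusted p = 0.922), and it was -0.53 ± 0.13 (SE) without CAC 1 and 5. Mock fat had 55.8, 63.4, 38.5, 49.5 and 55.5 TPM, which spanned both arms. Sdpr, the caveolar coat protein cavin-2, had 197, 302, 244, 192 and 183 TPM in the CAC libraries, against 307, 435, 343, 353 and 455 TPM in the NCAC libraries, with a difference of -0.77 ± 0.19 (SE), or -0.63 ± 0.20 without CAC 1 and 5. Cav1, the caveolin that cavins coat, overlapped in 1 library, at 589 to 1125 TPM in CAC and 734 to 2151 TPM in NCAC, with a difference of -0.85 ± 0.28, or -0.79 ± 0.33 without CAC 1 and 5. S1pr1, the sphingosine-1-phosphate receptor of endothelium and lymphocytes, had 40.0, 49.9, 48.8, 42.9 and 42.1 TPM in the CAC libraries, against 58.3, 76.8, 56.8, 64.5 and 69.3 TPM in the NCAC libraries, with a difference of -0.53 ± 0.13, or -0.45 ± 0.15 without CAC 1 and 5.

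A further 6 genes were also lower in every CAC than in every NCAC library. Fam126b had 6.76 to 11.8 TPM in CAC and 14.3 to 19.1 TPM in NCAC. Dcun1d3, a regulator of cullin neddylation, had 8.49 to 15.2 TPM in CAC and 18.2 to 28.5 TPM in NCAC. For Atl2, which fuses endoplasmic reticulum membranes, the ranges were 45.3 to 60.9 TPM in CAC and 70.3 to 116 TPM in NCAC. Ppp2r5b, a regulatory subunit of protein phosphatase 2A, had 31.3 to 44.6 TPM in CAC and 53.5 to 72.4 TPM in NCAC, Fam110c had 7.59 to 17.1 TPM in CAC and 18.5 to 39.1 TPM in NCAC, and Rnf11, a RING finger protein, had 80.6 to 95.6 TPM in CAC and 111 to 127 TPM in NCAC. Their log2 differences lay between -1.08 (Fam110c) and -0.44 (Rnf11).

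**Figure D3:**
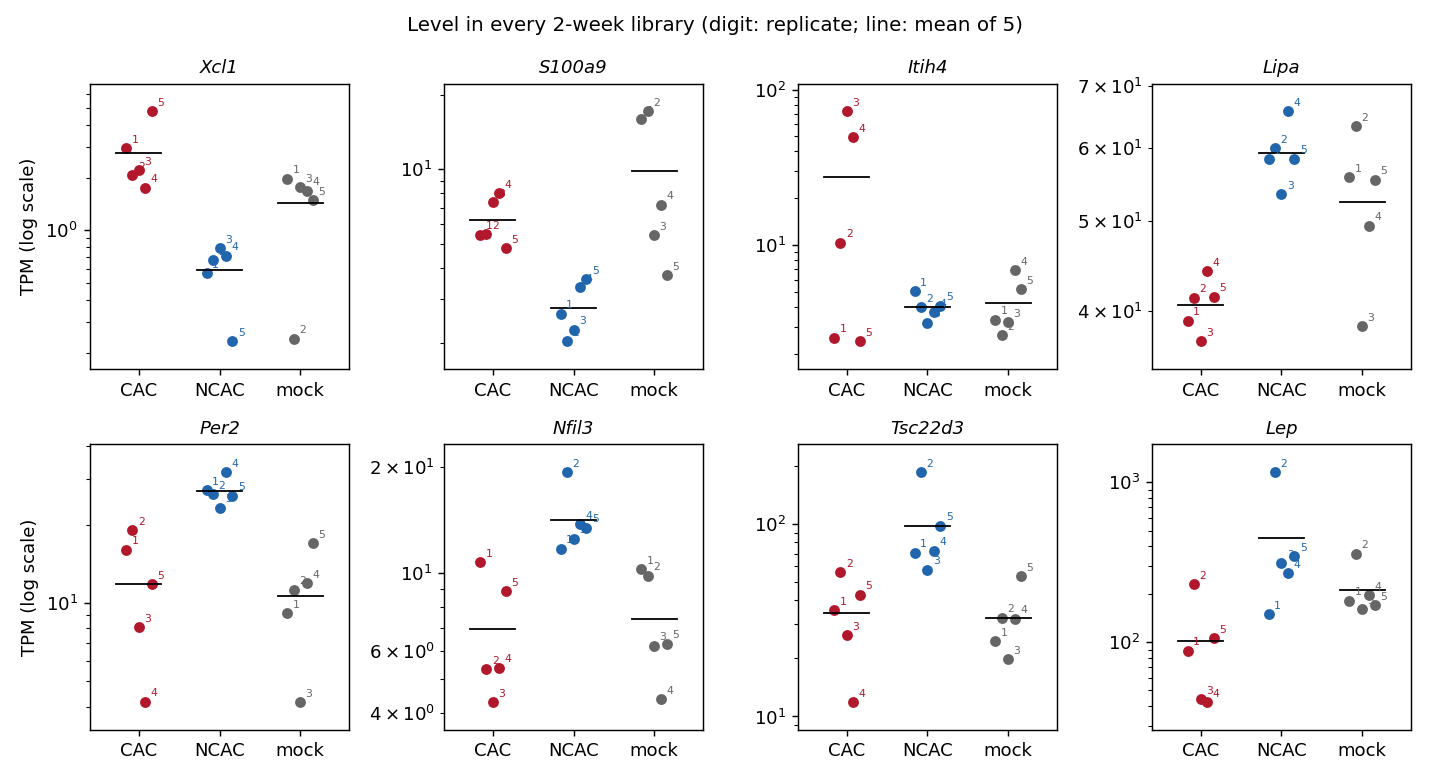
TPM (log scale) in each library at 2 weeks for genes described in the text, with CAC left, then NCAC, then mock (Con), replicate numbers beside the points. Xcl1 and S100a9 lie higher in every CAC than in every NCAC library, Lipa, Nfil3, Per2 and Tsc22d3 lower, and the lines mark means of 5.

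Several circadian clock genes had lower values in CAC and others higher ones. The clock runs as a loop in which CLOCK with ARNTL, or NPAS2 with ARNTL, drives the repressors Per and Cry and the output genes Tef and Ciart, and NR1D1 represses Arntl. Of 14 clock genes tested, 6 were lower and 2 higher in CAC at an unadjusted p under 0.05, against 2.31% and 1.32% of all genes, with a median of -0.41. In the fit without CAC 1 and 5, 4 were lower (background 3.97%) and 1 higher (background 0.865%), with a median of -0.35 beside -0.16 for all genes. None passed the adjusted test, and the hour at which the tissue was taken is not given in the sources used here.

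Per2 (chr1:91415982-91459324, minus strand), a repressor of the loop, had 16.0, 19.0, 8.06, 4.18 and 11.8 TPM in the CAC libraries, against 27.1, 26.1, 23.2, 31.8 and 25.8 TPM in the NCAC libraries. The arms did not overlap and the log2 difference was -1.26 ± 0.33 (SE; 95% interval -1.98 to -0.54; limma adjusted p = 0.922). Mock fat had 9.13, 11.3, 4.17, 11.9 and 16.9 TPM, also below every NCAC library. Per1 (chr11:69095217-69109960, plus strand) had 17.7, 38.1, 23.8, 10.8 and 17.4 TPM in the CAC libraries, against 31.8, 41.3, 36.4, 43.7 and 47.2 TPM in the NCAC libraries, with 1 CAC library inside the NCAC range, mock values of 14.6, 30.2, 7.64, 20.2 and 21.9 TPM and a difference of -0.96 ± 0.28 (SE; 95% interval -1.58 to -0.35; limma adjusted p = 0.922). Cry1 (chr10:85131700-85185064, minus strand) had 9.79, 11.3, 4.73, 4.67 and 7.61 TPM in the CAC libraries, against 11.6, 12.5, 9.66, 13.1 and 12.1 TPM in the NCAC libraries, a difference of -0.63 ± 0.24 (SE), and 6.26, 5.65, 4.89, 6.45 and 8.57 TPM in mock fat. All 3 genes had their highest mean in NCAC, and the mock mean was nearer to that of CAC. The difference of NCAC from mock, which uses the same NCAC libraries, was 1.35 ± 0.27 for Per2, 1.16 ± 0.29 for Per1 and 0.81 ± 0.16 for Cry1 (log2, SE), none of them called. Without CAC 1 and 5 the CAC minus NCAC difference was -1.50 ± 0.35 for Per2, -0.85 ± 0.32 for Per1 and -0.79 ± 0.26 for Cry1.

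The output genes Tef and Ciart also had lower values in CAC, and Nr1d1 and Npas2 higher ones. Tef had 49.1, 106, 58.1, 45.6 and 53.3 TPM in the CAC libraries, against 79.4, 103, 92.2, 112 and 108 TPM in the NCAC libraries, with a log2 difference of -0.71 ± 0.22 (SE). The differences of Per3 and Ciart were -0.79 ± 0.26 and -1.21 ± 0.47. Nr1d1 was higher in CAC, with 111, 101, 119, 195 and 138 TPM in the CAC libraries, against 41.6, 65.9, 94.9, 108 and 72.9 TPM in the NCAC libraries and a difference of 0.82 ± 0.27, and mock fat had 120.3, 213, 133, 171 and 76.4 TPM. Npas2 had 2.604, 0.191, 0.420, 4.35 and 6.50 TPM in the CAC libraries, against 0.0497, 0.196, 0.0861, 0.3 and 0.152 TPM in the NCAC libraries, a difference of 1.38 ± 0.47, and 5.15, 2.92, 1.23, 0.467 and 0.268 TPM in mock fat. Within CAC, Npas2 and Arntl were high in replicates 1, 4 and 5 and low in 2 and 3, since Arntl had 5.73, 0.374, 0.944, 5.17 and 12.9 TPM in the CAC libraries, against 1.15, 0.850, 0.528, 1.42 and 0.877 TPM in the NCAC libraries. With CAC 1 and 5 left out, the differences were -0.57 ± 0.25 for Tef, 0.86 ± 0.31 for Nr1d1 and 0.85 ± 0.42 for Npas2. Clock, Nr1d2 and Dbp differed by 0.19 ± 0.30, -0.17 ± 0.26 and -0.50 ± 0.26. Nfil3 (chr13:52967209-52981073, minus strand), a repressor that opposes Tef at its sites and is also needed for NK cell development, was below NCAC in every CAC library, with 10.8, 5.33, 4.30, 5.39 and 8.88 TPM in the CAC libraries, against 11.7, 19.4, 12.5, 13.8 and 13.5 TPM in the NCAC libraries. Its difference was -0.98 ± 0.25 (SE; 95% interval -1.53 to -0.43; limma adjusted p = 0.922) and widened to -1.32 ± 0.19 (SE) without CAC 1 and 5, where its limma adjusted p was 0.595. Mock fat had 10.3, 9.84, 6.22, 4.39 and 6.30 TPM.

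CACGTG, the E-box letters that CLOCK with ARNTL is known to bind, was looked for in the promoters of the clock genes because several of these genes were lower in the same libraries. RefSeq (GRCm38.p6) gave windows of 300 bases for 18 starts of 13 of the 14 clock genes, and 6 windows (33.3%), of Bhlhe41, Ciart, Cry1, Per1 and Tef, held it. Of all 32851 windows in the table, 2349 (7.15%) held it. The motif reads the same on both strands. For Per1, 1 of 2 windows held it, and the 1 window of Fkbp5, which is outside the clock list, also did. That window of Per1 (chr11:69098699-69098998, plus strand, motif starting at -166 from the start) and the window of Cry1 (chr10:85185005-85185304, minus strand, at -60) are printed 5′ to 3′ with the motif in capitals. A match is a description of the letters only.
Per1: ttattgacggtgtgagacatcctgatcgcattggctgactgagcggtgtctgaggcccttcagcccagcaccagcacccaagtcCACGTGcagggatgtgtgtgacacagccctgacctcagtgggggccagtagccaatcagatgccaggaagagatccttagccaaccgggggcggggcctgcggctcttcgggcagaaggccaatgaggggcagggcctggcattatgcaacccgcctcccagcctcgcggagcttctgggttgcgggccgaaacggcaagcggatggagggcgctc
Cry1: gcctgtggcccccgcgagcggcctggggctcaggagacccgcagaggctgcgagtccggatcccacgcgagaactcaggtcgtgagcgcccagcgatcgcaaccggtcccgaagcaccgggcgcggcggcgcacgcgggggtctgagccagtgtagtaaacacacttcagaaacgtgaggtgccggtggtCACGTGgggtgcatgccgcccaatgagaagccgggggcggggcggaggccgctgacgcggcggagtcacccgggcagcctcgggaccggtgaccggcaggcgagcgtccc

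A list of glucocorticoid and fasting response genes held targets of glucocorticoid hormone and others such as Foxo1, Foxo3 and Irs2. Of 16 tested, 4 were lower in CAC than in NCAC at an unadjusted p under 0.05 (background 2.31%) and 0 higher, with a median of -0.29. When CAC 1 and 5 were left out, 6 were lower (background 3.97%) and the median was -0.53 beside -0.16 for all genes. Tsc22d3 (chrX:140539528-140600659, minus strand), which encodes the glucocorticoid-induced leucine zipper GILZ, had 35.5, 55.8, 26.5, 11.9 and 42.8 TPM in the CAC libraries, against 70.6, 185, 57.6, 72.4 and 97.8 TPM in the NCAC libraries. No CAC library reached an NCAC library, and the log2 difference was -1.49 ± 0.41 (SE; 95% interval -2.41 to -0.58; limma adjusted p = 0.922). Fkbp5 (chr17:28399094-28517527, minus strand), a co-chaperone of the glucocorticoid receptor, had 12.7, 15.9, 13.9, 7.09 and 4.22 TPM in the CAC libraries, against 28.4, 74.9, 20.3, 14.7 and 22.9 TPM in the NCAC libraries, with CAC 2 above NCAC 4, and a difference of -1.39 ± 0.44 (SE; 95% interval -2.37 to -0.41; limma adjusted p = 0.922). Klf9, a transcription factor under glucocorticoid control, had 29.8, 43.6, 34.1, 30.5 and 34.1 TPM in the CAC libraries, against 49.0, 64.4, 44.3, 46.2 and 62.8 TPM in the NCAC libraries and a difference of -0.61 ± 0.16 (SE). In the fit without CAC 1 and 5, the differences were -1.71 ± 0.50 for Tsc22d3, -1.15 ± 0.47 for Fkbp5 and -0.55 ± 0.18 for Klf9. Per1, itself a known glucocorticoid target, is in both this list and the clock list and was counted as lower in each. In mock fat Tsc22d3 had 24.5, 32.6, 19.8, 32.1 and 53.2 TPM and Fkbp5 had 7.77, 7.44, 4.68, 10.8 and 24.7 TPM, so for both genes the highest value of the 3 arms was in NCAC.

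Leptin, the hormone that reports fat stores, was lower in CAC in its values. Lep (chr6:29060220-29073877, plus strand) had 88.5, 231, 44.0, 42.3 and 106 TPM in the CAC libraries, against 149.9, 1162, 311, 270.1 and 346 TPM in the NCAC libraries. The CAC mean was 102 ± 77.2 TPM, the NCAC mean 448 ± 406 TPM and the mock mean 214 ± 82.1 TPM (SD, n = 5 each). CAC 2 lay above NCAC 1, NCAC 2 was far above the rest, and the log2 difference was -2.04 ± 0.57 (SE; 95% interval -3.31 to -0.78; limma adjusted p = 0.922), or -2.18 ± 0.74 without CAC 1 and 5. Of the 10 fat-expansion markers, 3 were lower at an unadjusted p under 0.05 (background 2.31%), with a median of -0.93 beside 0.10 for all genes. Without CAC 1 and 5, 3 were lower (background 3.97%), with a median of -1.28 beside -0.16. Trp53inp2, a regulator of autophagy, was separate, with 45.8, 56.3, 56.5, 44.8 and 48.9 TPM in the CAC libraries, against 99.7, 172, 59.1, 65.4 and 81.1 TPM in the NCAC libraries and a difference of -0.80 ± 0.26 (SE). Npr3, the receptor that clears natriuretic peptides, had 63.8, 79.6, 26.9, 26.8 and 62.8 TPM in the CAC libraries, against 33.4, 417, 156, 197 and 93.7 TPM in the NCAC libraries and a difference of -1.47 ± 0.59, or -1.75 ± 0.76 without CAC 1 and 5.

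Genes of lipid storage had lower values in CAC that depended on CAC 1 and 5. Cd36, the fatty acid transporter, had 1034, 1953, 1587, 1536 and 970.0 TPM in the CAC libraries, against 1895, 2606, 2178, 2061 and 2470.5 TPM in the NCAC libraries. Its log2 difference was -0.70 ± 0.23 (SE), and -0.40 ± 0.18 without CAC 1 and 5. Lpl, the lipase that frees fatty acids from blood lipoproteins, differed by -0.83 ± 0.29, and by -0.44 ± 0.22 without them. The adipocyte identity and adipokine list had 5 of 16 lower before adjustment (background 2.31%) and a median of -0.48 beside 0.10 for all genes. With CAC 1 and 5 left out, it had 2 lower (background 3.97%) and 1 higher (background 0.865%), and its median was -0.11 beside -0.16. Of 8 triglyceride synthesis genes, 3 were lower (background 2.31%) with a median of -0.36. Without those libraries 1 was lower (background 3.97%) and the median was 0.02. Lpin1, a phosphatidate phosphatase, differed by -1.05 ± 0.34 (-0.61 ± 0.28 without them), and Dgat2, which makes triglyceride, by -0.67 ± 0.25 (-0.41 ± 0.21). In fatty acid synthesis 1 of 15 was lower (background 2.31%), the lipid droplet protein Pnpla3 (-0.58 ± 0.22). The list's median was -0.31 with all libraries and 0.31 without CAC 1 and 5.

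The arms overlapped for Pnpla2 and Lipe, the main cytosolic lipases of fat. Pnpla2, which encodes the triglyceride lipase ATGL, had 898, 2125, 1991, 1565 and 579.6 TPM in the CAC libraries, against 2126, 1772, 1877, 1221 and 2246 TPM in the NCAC libraries, with a log2 difference of -0.50 ± 0.36 (SE) that was 0.05 ± 0.23 without CAC 1 and 5. Lipe, the hormone-sensitive lipase, differed by -0.39 ± 0.29 and by 0.05 ± 0.19 without them. Of 14 lipolysis genes, 3 were lower (background 2.31%), among them Pde3b, the phosphodiesterase through which insulin restrains lipolysis, at 43.3 to 89.9 TPM in CAC and 84.7 to 118 TPM in NCAC and a difference of -0.67 ± 0.21. The lipolysis median was -0.50 with all libraries, and without CAC 1 and 5 it was -0.13, with 2 lower (background 3.97%) and 1 higher (background 0.865%). Fasn, the fatty acid synthase, differed by -0.40 ± 0.46, Scd1, the stearoyl-CoA desaturase, by -0.49 ± 0.33, and Mlxipl, the carbohydrate-response factor, by -0.53 ± 0.32. Pck1, of glyceroneogenesis, differed by -0.25 ± 0.38 and Pdk4, which restrains pyruvate oxidation, by -0.48 ± 0.66.

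The cholesterol synthesis list had 2 of 14 tested genes lower before adjustment (background 2.31%) and 12 of 14 differences negative, with a median of -0.21 beside 0.10 for all genes. When CAC 1 and 5 were left out, the counts were again 2 lower (background 3.97%) and 12 negative, with a median of -0.24 beside -0.16. The mean log2(TPM + 1) of the list was 4.59 to 4.74 in CAC, 4.78 to 5.18 in NCAC and 4.89 to 5.14 in mock fat. The arms did not overlap in that mean, but they did in the summed level, at 512 to 780 TPM in CAC and 649 to 1097 TPM in NCAC. Sc5d, a late enzyme of cholesterol synthesis, had 32.1 to 58.0 TPM in CAC and 56.4 to 98.1 TPM in NCAC and a log2 difference of -0.67 ± 0.22 (SE), or -0.39 ± 0.20 without CAC 1 and 5. Hk2, the inducible hexokinase, had 33.3, 61.7, 57.2, 37.0 and 23.2 TPM in the CAC libraries, against 91.4, 89.2, 67.2, 53.8 and 79.3 TPM in the NCAC libraries and a difference of -0.89 ± 0.27, or -0.55 ± 0.22 without CAC 1 and 5. Pik3r1, a regulatory subunit of phosphoinositide 3-kinase, differed by -0.46 ± 0.18. In the insulin and glucose uptake list 2 of 14 were lower (background 2.31%) and 1 higher (background 1.32%), with a median of -0.13. Without CAC 1 and 5, 2 were lower (background 3.97%) and 0 higher, with a median of -0.12.

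Heat-producing and oxidative genes varied within the arms. Ucp1, the uncoupling protein of brown and beige fat, had 31.5, 6.64, 470.3, 2.27 and 1.45 TPM in the CAC libraries, against 1348, 601, 2.29, 0.418 and 30.2 TPM in the NCAC libraries, so that both arms held high and near-silent libraries. Of 16 thermogenic genes, 16 of fatty acid oxidation and 22 nuclear-encoded respiratory chain genes, 0 were lower or higher at an unadjusted p under 0.05, with medians of -0.29, -0.41 and -0.15. Those medians were -0.08, -0.06 and 0.01 without CAC 1 and 5. The 2 genes of smallest p in each list were Ckmt1 (1.84 ± 0.96) and Letmd1 (-0.57 ± 0.30), Cpt2 (-0.49 ± 0.28) and Hadhb (-0.53 ± 0.34), and Uqcrc2 (-0.31 ± 0.17) and Ndufs1 (-0.34 ± 0.19). Ckmt1 was at 0.12 ± 0.29 without CAC 1 and 5.

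Acute phase genes had higher values in CAC in some cases and lower ones in others. Itih4 (chr14:30886476-30902353, plus strand), an inter-alpha-trypsin inhibitor heavy chain made in liver and known as an acute phase protein, had 2.54, 10.4, 72.5, 49.5 and 2.41 TPM in the CAC libraries, against 5.04, 3.99, 3.18, 3.71 and 4.08 TPM in the NCAC libraries. CAC 2, 3 and 4 were above every NCAC library, CAC 1 and 5 were below every one, and mock fat had 3.32, 2.64, 3.19, 6.89 and 5.23 TPM. The log2 difference was 1.48 ± 0.81 (SE; 95% interval -0.31 to 3.27; limma adjusted p = 0.922) with all libraries and 2.81 ± 0.51 (SE; limma adjusted p = 0.595) without CAC 1 and 5. Saa3 (chr7:46711998-46715700, minus strand), the serum amyloid A form made in fat and macrophages, had lower values in most CAC libraries, with 8.84, 4.84, 5.16, 14.7 and 12.7 TPM in the CAC libraries, against 26.2, 78.7, 10.7, 46.5 and 31.0 TPM in the NCAC libraries. CAC 4 and 5 overlapped with NCAC 3, mock fat had 17.6, 12.4, 17.0, 9.76 and 5.99 TPM, and the difference was -1.79 ± 0.48 (SE; 95% interval -2.85 to -0.74; limma adjusted p = 0.922), or -1.99 ± 0.58 without CAC 1 and 5. Il6ra, a receptor chain for interleukin-6, had 7.35, 9.91, 5.46, 7.12 and 8.02 TPM in the CAC libraries, against 9.34, 14.9, 12.6, 14.5 and 12.2 TPM in the NCAC libraries and a difference of -0.68 ± 0.19 (SE). Of 19 acute phase and IL-6 genes tested, 1 was higher (Apod, 6.25 to 25.4 TPM in CAC and 2.17 to 9.58 TPM in NCAC) and 2 were lower (background 1.32% and 2.31%), with a median of 0.24. In the fit without CAC 1 and 5, 2 were higher (background 0.865%) and 2 lower (background 3.97%), with a median of 0.09 beside -0.16 for all genes.

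Lcn2 and Hp of that list, and 3 genes of other lists linked to fat loss, stress or inflammation, overlapped between the arms. Lcn2, the iron-binding lipocalin of epithelium and neutrophils, had 44.7, 2.68, 4.69, 2.72 and 142 TPM in the CAC libraries, against 0.590, 2.53, 1.95, 5.19 and 3.68 TPM in the NCAC libraries, with a log2 difference of 2.01 ± 0.98 (SE) and 0.31 ± 0.40 without CAC 1 and 5. Hp, haptoglobin, had 263 to 906 TPM in CAC and 274 to 1131 TPM in NCAC, with a difference of 0.04 ± 0.45 that was 0.66 ± 0.37 without CAC 1 and 5 and negative under several other settings. Mt2, a metallothionein, had 25.5 to 137 TPM in CAC and 16.7 to 339 TPM in NCAC, and a difference of 0.25 ± 0.80, or -0.60 ± 0.87 without those libraries. Azgp1, a zinc-binding glycoprotein linked to fat loss, had 0.164 to 3.52 TPM in CAC and 0.220 to 4.85 TPM in NCAC, with a difference of 0.16 ± 0.51, or 0.75 ± 0.48 without them. Ccl8, a monocyte chemokine, had 40.1, 14.99, 27.7, 10.8 and 6.99 TPM in the CAC libraries, against 1.63, 3.34, 14.5, 37.7 and 7.00 TPM in the NCAC libraries and a difference of 1.00 ± 0.70, or 0.99 ± 0.81 without them.

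TTCNNNGAA, letters of the kind that STAT3, the factor activated by interleukin-6, is known to bind, was looked for in promoter windows because Itih4 is the acute phase gene whose later course is given below. Of all 32851 windows, 2726 (8.3%) held it, the window of Itih4 among them (chr14:30886226-30886525, plus strand, at -51 from the start, GRCm38.p6, RefSeq). Among the other named genes searched, 1 of 2 windows of Per1 and 1 of 3 of Tsc22d3, both with lower values in CAC, also held it. It was in 0 of 2 windows of Fetub, whose CAC means also rose in later weeks. The motif is its own reverse complement, and a match is a description of the letters only. The motif stands in capitals.
Itih4: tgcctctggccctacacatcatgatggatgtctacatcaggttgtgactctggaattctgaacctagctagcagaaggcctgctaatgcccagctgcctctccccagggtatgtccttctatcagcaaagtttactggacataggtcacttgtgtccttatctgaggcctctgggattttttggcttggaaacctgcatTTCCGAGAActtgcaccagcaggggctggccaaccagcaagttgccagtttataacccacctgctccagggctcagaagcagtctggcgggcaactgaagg

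Inflammatory, stress and matrix lists had few members under 0.05 before adjustment. Of 15 genes of the TNF and IL-1 response, 2 were lower (background 2.31%), Ccl11, the eosinophil chemokine eotaxin (49.4 to 93.5 TPM in CAC and 64.9 to 123 TPM in NCAC), and Vcam1, a leukocyte adhesion molecule (6.87 to 12.9 TPM in CAC and 11.1 to 30.2 TPM in NCAC). Without CAC 1 and 5, 2 were lower (background 3.97%), and the list's median was -0.21 beside -0.16 for all genes. In the interferon list 0 of 18 passed, with Psmb8, an immunoproteasome subunit, at 0.31 ± 0.16 and Cxcl9, a T cell chemokine, at -0.59 ± 0.32. Its median was -0.02 with 11 of 18 negative, and without CAC 1 and 5 it was -0.44 with 16 negative and 0 under 0.05. The unfolded protein list had 0 of 14, with 11 negative and a median of -0.20, with Atf3 at -0.67 ± 0.48 and Herpud1 at -0.28 ± 0.21. Without CAC 1 and 5 it had 3 lower (background 3.97%) and 12 negative, with a median of -0.29, Atf3 at -1.25 ± 0.43 and Herpud1 at -0.52 ± 0.20. The autophagy list had 0 of 14, with Fbxo32 at 1.51 ± 0.74 and Bnip3l at -0.26 ± 0.15, and its median was -0.03, or -0.13 without those libraries. Fbxo32 was at 0.32 ± 0.43 without them. The 22 matrix genes had 0 and a median of -0.09. With CAC 1 and 5 left out, all 22 had a negative difference, 2 under 0.05 (background 3.97%), with a median of -0.78 beside -0.16 for all genes. Matrix genes summed to 6263 and 6393 TPM in CAC 1 and 5 and to 6766 TPM in NCAC 4, against 1685 to 3592 TPM in the other NCAC libraries. NCAC 4 stayed in that fit, and a fit that left it out as well was not run. Col1a1, the main fibrillar collagen, had 588, 55.5, 24.9, 51.4 and 607 TPM in the CAC libraries, against 36.9, 75.5, 99.3, 431 and 93.5 TPM in the NCAC libraries, with a difference of 0.24 ± 0.96 (SE) with all libraries and -1.28 ± 0.69 without CAC 1 and 5. Col15a1, of basement membranes, differed by -0.41 ± 0.32, and Thbs2, a matricellular protein, by -0.53 ± 0.55.

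Proliferation genes depended on the same libraries. They summed to 419, 48.4, 39.9, 45.9 and 311 TPM in CAC, against 36.1, 63.5, 65.4, 104 and 63.6 TPM in NCAC. All 16 had a positive difference with all libraries (median 0.78 beside 0.10 for all genes, 0 under 0.05). All 16 had a negative one without CAC 1 and 5, where 8 were lower under 0.05 (background 3.97%) and the median was -0.47 beside -0.16. NCAC 4, the highest NCAC library at 104 TPM, stayed in that fit. Cdk1, the mitotic kinase, had 26.6, 1.69, 1.43, 2.67 and 18.3 TPM in the CAC libraries, against 1.11, 3.00, 2.46, 3.59 and 2.61 TPM in the NCAC libraries. Ccnb1, its cyclin, ranged from 0.298 to 11.4 TPM in CAC and 0.282 to 0.964 TPM in NCAC.

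**Figure D4:**
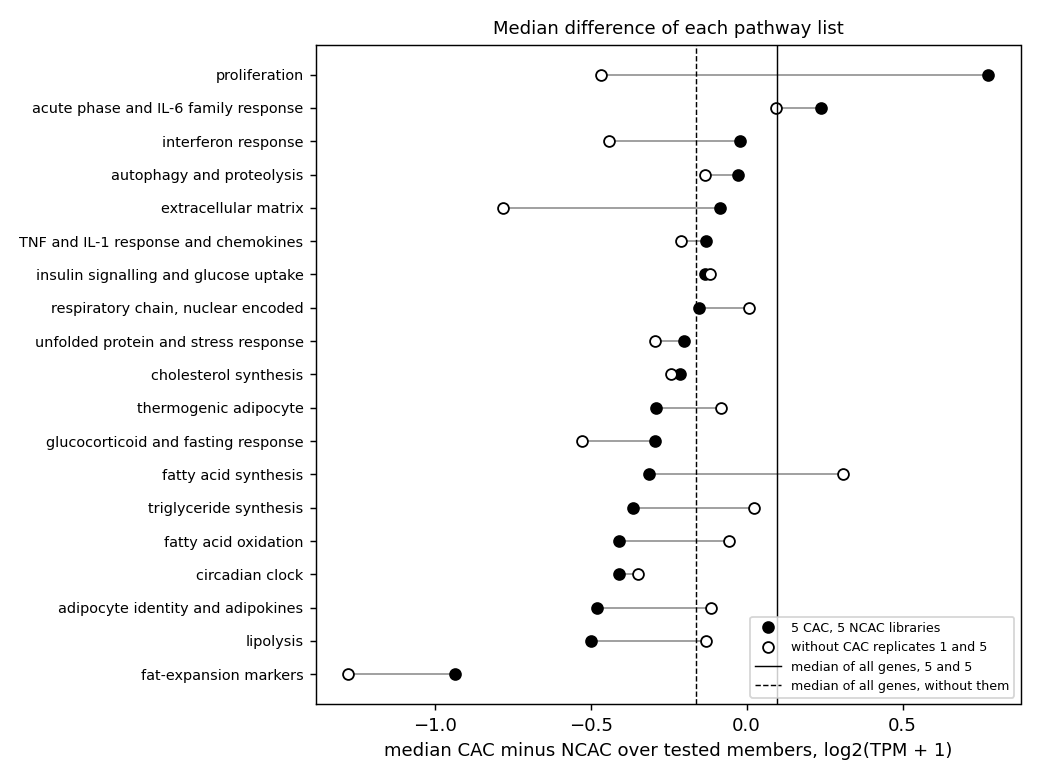
Median log2 difference between CAC and NCAC fat at 2 weeks of each pathway list, with all libraries (filled circles) and with CAC 1 and 5 left out (open circles), beside the medians of all genes (lines). The proliferation list lies at 0.78 with all libraries and at -0.47 without CAC 1 and 5, while the fat-expansion and circadian lists lie below 0 in both.

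Cell marker lists were read for other cell types, with counts at an unadjusted p under 0.05 (background 1.32% higher and 2.31% lower). Endothelial markers had 2 of 10 higher, Cldn5, a tight junction protein of endothelium (100.4, 65.5, 100.5, 135 and 156 TPM in the CAC libraries, against 67.0, 62.2, 56.0, 61.0 and 79.3 TPM in the NCAC libraries), and Egfl7 (36.1 to 61.8 TPM in CAC and 35.3 to 42.6 TPM in NCAC). Mock fat had 171, 112, 122, 158 and 77.4 TPM of Cldn5. Its mock mean of 128 TPM was nearer to that of CAC (112 TPM) than of NCAC (65.1 TPM). Skeletal muscle markers had 3 of 11 higher at low levels, among them creatine kinase Ckm (0.592 to 2.91 TPM in CAC and 0 to 1.502 TPM in NCAC) and troponin Tnnt3 (0.781 to 6.37 TPM in CAC and 0.0845 to 3.28 TPM in NCAC). Among 14 macrophage markers 1 was lower, the scavenger receptor Cd163 (10.53 to 23.4 TPM in CAC and 12.9 to 30.9 TPM in NCAC), while Cx3cr1 had 0.641 to 6.14 TPM in CAC and 0.525 to 2.62 TPM in NCAC and Adgre1, which encodes F4/80, 7.68 to 16.9 TPM in CAC and 8.13 to 25.2 TPM in NCAC. Of 7 eosinophil and mast cell markers the mast cell receptor Kit was higher (5.72 to 13.8 TPM in CAC and 4.31 to 7.00 TPM in NCAC) and the eosinophil ribonuclease Rnase2a lower (3.52 to 14.3 TPM in CAC and 4.60 to 43.0 TPM in NCAC). Of 9 mesothelial markers 1 was higher, the epithelial cadherin Cdh1 (0 to 109 TPM in CAC and 0.0130 to 5.37 TPM in NCAC), with the keratin Krt18 at 0.914 to 406 TPM in CAC and 1.66 to 42.4 TPM in NCAC. Of those 9 differences, 5 were positive and 4 negative. Without CAC 1 and 5, 3 were positive and 6 negative, the 2 under 0.05 being Msln (-1.32 ± 0.57) and Gpm6a (-1.20 ± 0.48). In the nerve list 1 of 6 was lower, the myelin protein Pmp22 (154 to 244 TPM in CAC and 163 to 370.4 TPM in NCAC). Without CAC 1 and 5, 1 endothelial and 1 skeletal muscle marker were higher, 2 macrophage and 2 mesothelial markers lower, and 0 nerve markers either. Of the eosinophil and mast cell markers 1 was higher and 1 lower (backgrounds 0.865% and 3.97%). The differences were then 0.57 ± 0.22 for Cldn5, 0.21 ± 0.16 for Egfl7, 0.52 ± 0.30 for Ckm, 0.51 ± 0.43 for Tnnt3, -0.56 ± 0.31 for Cd163, 1.00 ± 0.77 for Cdh1 and -0.38 ± 0.25 for Pmp22.

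No member passed 0.05 before adjustment in the remaining lists with all libraries. Without CAC 1 and 5, Mfap5 of the fibroblast list was lower (-1.07 ± 0.40), as was Cela1 of the pancreas list (-1.41 ± 0.43). Dct of the melanocyte list was then higher (0.61 ± 0.21). Backgrounds in that fit were 3.97% lower and 0.865% higher. There 11 of 12 fibroblast markers were negative, against 5 with all libraries. In both fits all 6 pancreas and liver differences were negative and all 4 melanocyte ones positive. Epithelial genes were highest in CAC 5, with Epcam at 0.0299 to 276 TPM in CAC and 0.350 to 2.48 TPM in NCAC, Krt7 at 0.320 to 50.5 TPM in CAC and 1.00 to 12.7 TPM in NCAC, the uroplakin Upk1a at 0.214 to 87.1 TPM in CAC and 0.126 to 48.1 TPM in NCAC and Grhl3 at 0 to 6.12 TPM in CAC and 0 to 3.16 TPM in NCAC. In the genital tract list Ovgp1, the oviduct glycoprotein, had 0.787 to 64.3 TPM in CAC and 0.602 to 2.12 TPM in NCAC and Inha, the inhibin subunit, 0.578 to 5.83 TPM in CAC and 0.525 to 2.63 TPM in NCAC. The smooth muscle gene Cnn1 had 2.06 to 502 TPM in CAC and 0.922 to 357 TPM in NCAC. For stromal genes the ranges were, for F3, 30.2 to 125 TPM in CAC and 21.8 to 40.8 TPM in NCAC, and for Pi16, 6.50 to 55.2 TPM in CAC and 13.4 to 44.9 TPM in NCAC. Immunoglobulin Ighm had 27.7 to 46.9 TPM in CAC and 22.2 to 435 TPM in NCAC, the B cell gene Ms4a1 0.0924 to 0.678 TPM in CAC and 0.269 to 0.579 TPM in NCAC, and the T cell kinase Lck 0.728 to 4.58 TPM in CAC and 0.421 to 1.33 TPM in NCAC. Il7r, an interleukin-7 receptor chain, had 0.394 to 0.630 TPM in CAC and 0.371 to 1.15 TPM in NCAC. The haemoglobins Hba-a1 and Hbb-bt differed by 0.29 and -0.30. Of the melanocyte genes, Mitf had 4.76 to 22.1 TPM in CAC and 3.93 to 7.32 TPM in NCAC, Sox10 0.517 to 1.61 TPM in CAC and 0.313 to 0.852 TPM in NCAC, and tyrosinase (Tyr) was listed at 0 in all 10 libraries. Cela1, an elastase, had 2.85 to 13.1 TPM in CAC and 6.15 to 24.1 TPM in NCAC, and Serpina1c, a liver protease inhibitor, had 0.0448 to 0.778 TPM in CAC and 0.306 to 22.9 TPM in NCAC.

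Against mock tissue of the same week, CAC fat had 1 gene called higher among 14572 (0.00686%) and 0 lower, with 267 higher (1.83%) and 236 lower (1.62%) before adjustment, together 503 (3.45%). The called gene was Ccdc36 (a factor of meiotic recombination), with 4.11, 2.10, 3.86, 3.06 and 3.11 TPM in CAC, 1.05, 4.05, 1.24, 0.108 and 0.0210 TPM in NCAC and 0.468, 0.304, 0, 0.0407 and 0.0193 TPM in mock fat. Its log2 difference from mock was 1.86 ± 0.20 (SE; 95% interval 1.42 to 2.30; limma adjusted p = 0.0222), and the call was lost without CAC replicate 1, 3, 4 or 5 or without mock replicate 2, 3, 4 or 5. NCAC 2 was inside the CAC range, and the difference between CAC and NCAC was 1.12 ± 0.40 (SE). NCAC fat had 0 genes called against mock among 14574, with 120 higher (0.823%) and 114 lower (0.782%) before adjustment, together 234 (1.61%).

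The gap between CAC and NCAC at 2 weeks was then set against the mean gap of weeks 4, 6 and 8 in 1 fit of 42 libraries. Of 14577 genes, 5 were called (0.0343%), 1 with a more positive gap at 2 weeks (0.00686%) and 4 with a more negative one (0.0274%). Before adjustment 1031 genes (7.07%) and 867 (5.95%) were under 0.05, together 1898 (13%). Itih4 had CAC means of 27.5, 126, 569.8 and 895 TPM at 2, 4, 6 and 8 weeks, against NCAC means of 4.00, 4.27, 3.31 and 8.96 TPM. Its gap at 2 weeks minus the later mean gap was -4.25 ± 0.81 (SE; 95% interval -5.90 to -2.61; limma adjusted p = 0.0332). Fetub (chr16:22918334-22939778, plus strand), the liver protein fetuin-B, had CAC means of 0.671, 3.57, 13.6 and 17.7 TPM, against NCAC means of 0.623, 0.512, 0.539 and 0.731 TPM. At 2 weeks its values were 0.435, 0.657, 1.27, 0.781 and 0.207 TPM in the CAC libraries, against 0.436, 1.54, 0.370, 0.359 and 0.412 TPM in the NCAC libraries, and the difference between gaps was -2.52 ± 0.43 (SE; 95% interval -3.39 to -1.64; limma adjusted p = 0.015). Both genes thus had gaps in later weeks that they lacked, or had only in some libraries, at 2 weeks.

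Cspg4 (chr9:56865033-56899870, plus strand), the pericyte proteoglycan NG2, had CAC means of 20.3, 29.0, 38.7 and 31.4 TPM over the 4 weeks, against NCAC means of 26.6, 18.0, 16.1 and 15.3 TPM. Its gap differed by -1.35 ± 0.27 (SE; 95% interval -1.90 to -0.80; limma adjusted p = 0.0446), so CAC was below NCAC in mean at 2 weeks and above it later. Xcl1 ran the reverse course, with CAC means of 2.76, 0.572, 0.927 and 0.957 TPM, against NCAC means of 0.596, 1.01, 1.42 and 1.12 TPM, and a difference between gaps of 1.48 ± 0.27 (SE; 95% interval 0.93 to 2.02; limma adjusted p = 0.0215). The fifth call was the predicted gene Gm27252 (chr7:63896533-63899698, plus strand), a processed transcript, at -1.91 ± 0.38 (SE; 95% interval -2.67 to -1.14; limma adjusted p = 0.0446). Fkbp5, with CAC means of 10.8, 61.8, 118 and 219 TPM, against NCAC means of 32.2, 27.4, 14.3 and 13.5 TPM, was not called (-3.80 ± 0.82 (SE; 95% interval -5.46 to -2.15; limma adjusted p = 0.0735)). Lep had CAC means of 102, 84.9, 20.01 and 20.6 TPM, against NCAC means of 448, 489, 232 and 203 TPM, so that CAC was below NCAC in mean at each time. S100a9 had CAC means of 6.23, 13.2, 21.0 and 19.7 TPM, against NCAC means of 2.77, 8.28, 9.35 and 10.8 TPM.

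The 5 calls were unequal over the other settings tried, left-out libraries included. Fetub stayed called in 48 of 51 settings, Xcl1 in 46 of 51, Itih4 in 34 of 52, Gm27252 in 21 of 51 and Cspg4 in 14 of 52, where the totals differ because genes below the filter at 5 TPM gave no value. With CAC 1 and 5 of week 2 left out, 0 genes were called, and the 5 differences were 1.21 (Xcl1), -2.31 (Fetub), -2.92 (Itih4), -1.30 (Cspg4) and -1.64 (Gm27252), each at a limma adjusted p = 0.465. Leaving out 1 library at a time gave 0 calls without CAC 1 or CAC 5 of week 2, and 114 without CAC 3 of week 2. It gave 45 without CAC 3 of week 8, 18 without CAC 5 of week 4, 11 without CAC 1 of week 4 and 8 without NCAC 2 of week 4. Between 1 and 3 were called without any of the following: CAC 4 or any NCAC library of week 2; CAC 2, 3 or 4 or NCAC 1 or 3 of week 4; CAC 1, 2, 3 or 4 or NCAC 1, 2, 3 or 4 of week 6; CAC 2 or 4 or NCAC 1 or 2 of week 8.

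**Figure D5:**
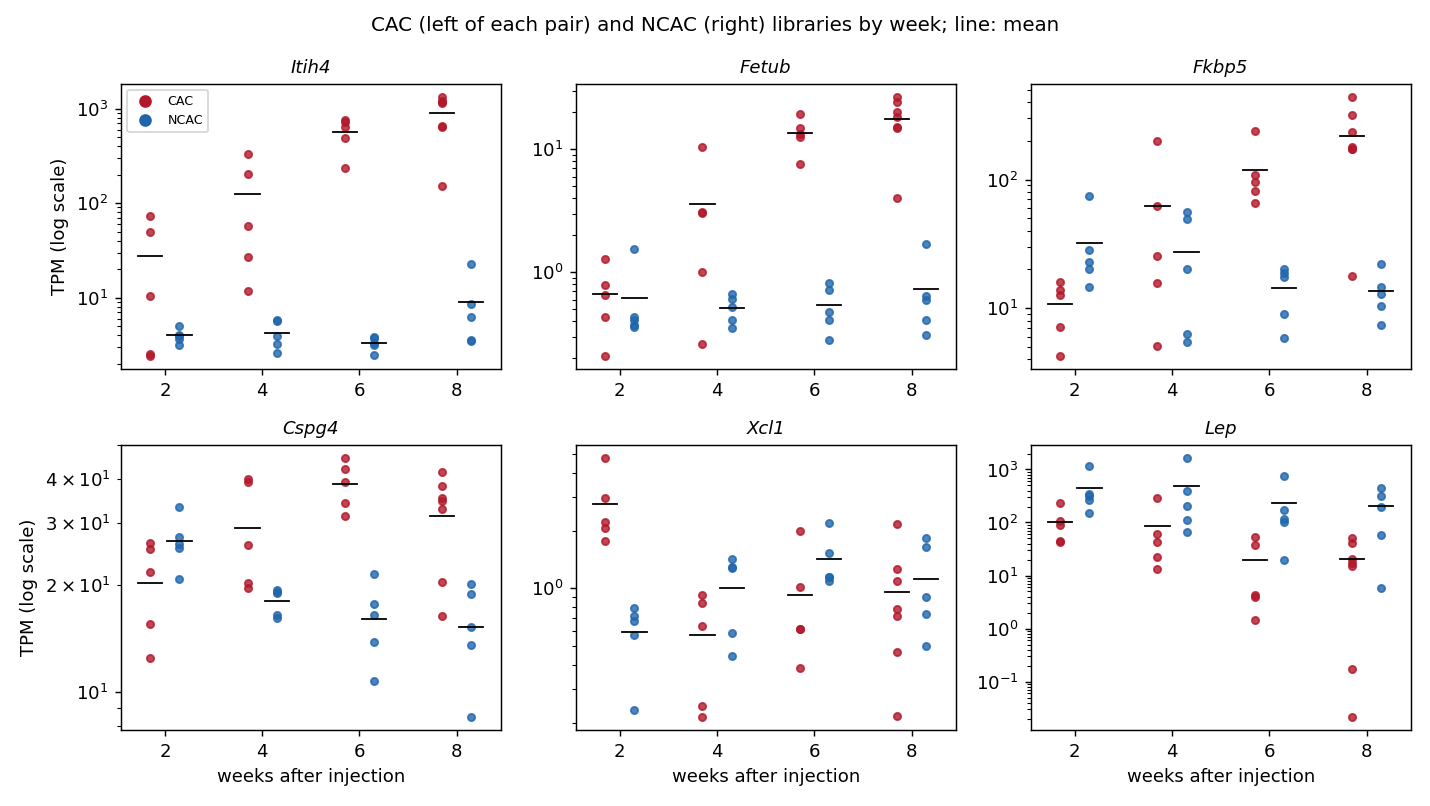
TPM (log scale) of CAC and NCAC libraries at 2, 4, 6 and 8 weeks for genes described in the text, where points are libraries and lines are means. The CAC mean of Itih4 is 27.5, 126, 570 and 895 TPM over the weeks, while Xcl1 has its higher CAC mean at 2 weeks.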

How the data were processed

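RNA was extracted with Trizol and made into TruSeq stranded mRNA libraries, per the labels' protocols. The authors deposited 1 table of TPM for 47643 gene symbols; the submitters' processing notes name genome build mm10. No aligner, counting tool or annotation is given in the sources used here. Each library sums to 1000000 TPM, the read depth is unknown, and no counting interval is given. Genes with similar or near-identical copies (such as Mt2, Saa3, Hba-a1 and Hbb-bt) are uncertain individually.

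TPM were transformed to log2(TPM + 1), a scale that understates differences of low genes. Symbols that averaged 0.5 TPM or more over 62 libraries were fitted with limma 3.58.1 in R 4.3.3 (trend, robust) on the libraries compared, two-sided, with Benjamini-Hochberg adjustment over all genes, and called at an adjusted p under 0.05. The code was tested on simulated data. The 19 pathway and 18 marker lists, the genes and the tests were chosen with earlier results of these data known. Named genes were up to 10 non-overlapping ones of smallest p per direction with at least 5 TPM in the higher arm, the 2 of smallest p per list, up to 5 calls per direction elsewhere, and 20 set genes. Further genes were named after their values were seen, and a few that the rule names are not reported here. Predicted genes were skipped but counted. Coordinates are from GENCODE M21 (GRCm38), which holds 45134 of the symbols. Alternatives covered pseudocount, filters, scaling, weights, block and left-out libraries. In the weeks comparison, the gap is the CAC minus NCAC difference.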

Additional observations from a re-analysis of the deposited data

Results flagged for a closer look

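A value was noted where the highest or lowest of 5 libraries lay farther from its neighbour than 0.71 of the group's range. Of 296 groups looked at, 17 (5.74%) met this, and chance gives about 1 in 20.

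Most of these values were in 2 NCAC libraries. NCAC 2 had 5.37 TPM of Cdh1, against 0.0130 to 0.212 TPM in the other 4, 3.16 TPM of Grhl3, against 0 TPM, 12.7 TPM of Krt7, against 1.00 to 2.498 TPM, and 48.1 TPM of Upk1a, against 0.126 to 0.704 TPM. Its mean log2 level of urothelial markers was 4.30, against 0.43 to 0.83. The same library had 339 TPM of Mt2, against 16.7 to 30.7 TPM, 1.54 TPM of Fetub, against 0.359 to 0.436 TPM, and a mean log2 level of pancreas and liver markers of 2.88, against 0.71 to 1.33. NCAC 4 had 1.502 TPM of Ckm, against 0 to 0.282 TPM, 3.28 TPM of Tnnt3, against 0.0845 to 0.593 TPM, and 2.62 TPM of Cx3cr1, against 0.525 to 0.598 TPM. In NCAC 1 the collagen gene Col15a1 was lowest at 61.8 TPM, against 153 to 203 TPM, and the mitochondrially encoded share was highest at 44.4%, against 27.6 to 32.3%.

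Among CAC libraries, CAC 2 had 23.4 TPM of Cd163, against 10.53 to 13.1 TPM. CAC 1 had 64.3 TPM of the oviduct gene Ovgp1, against 0.787 to 2.14 TPM. CAC 3 had a mean log2 level of thermogenic genes of 4.83, against 3.11 to 3.58, and CAC 4 one of B cell and lymph node markers of 1.65, against 1.03 to 1.17.

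The gap between CAC and NCAC differed between 2 weeks and the later weeks in 5 genes (limma adjusted p under 0.05, log2, 2 weeks minus the mean of 4, 6 and 8 weeks): 1.48 for Xcl1, -1.91 for Gm27252, -1.35 for Cspg4, -4.25 for Itih4 and -2.52 for Fetub.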

How the results depend on the processing

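For CAC against NCAC, library weights gave 11 called genes (6 higher, 5 lower: Cdsn, Cela1, Cish, Dclk3, Gm15912, Gm7030, Grrp1, H2-Q10, Krt15, Nfil3 and Upp1), 1 of them in the lists (Cela1). Leaving out 1 library at a time gave 0 to 1, the 1 being Cdsn without NCAC 4. The other settings gave 0. For CAC against mock (1), pseudocount 0.1, a filter at 5 TPM, median-ratio scaling, the replicate block and leaving out CAC 1 and 5 gave 0, mitochondrially encoded genes left out 2, no trend 2, library weights 670, and left-out libraries 0 to 1. NCAC against mock gave 230 with library weights. For the gap between weeks (5), no filter gave 2, a filter at 5 TPM 0, mitochondrially encoded genes left out 3, median-ratio scaling 20, library weights 605, the replicate block 3, CAC 1 and 5 left out 0, and left-out libraries 0 to 114. Same-numbered libraries correlated in their deviations at -0.35, 0.16, -0.06, -0.39 and -0.33, which gave no sign of pairing by number. These values cannot exclude a pairing, because the large differences of CAC 1 and 5 from the other libraries enter the deviations. With the replicate block, CAC against NCAC had 0 calls.

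The CAC minus NCAC difference in the share of TPM from mitochondrially encoded genes (-2.21 points) ranged from -5.02 to 0.682 with 1 library left out. Of 110 named genes, 92 kept their sign under every setting tried. Log2 differences that changed sign were as follows. With library weights they were Ccnb1 -0.17, Cdk1 -0.13, Col1a1 -0.76, Fasn 0.0263, Lipe 0.0022, Mt2 -0.0253, Pck1 0.26, Pdk4 0.0704 and Retnlg -0.59. Without CAC 1 and 5 they were Ccnb1 -0.19, Cdk1 -0.25, Cnn1 -0.11, Col1a1 -1.28, Fasn 0.31, Lipe 0.0467, Mt2 -0.60, Pi16 -0.24, Pnpla2 0.0536, Retnlg -0.16 and Scd1 0.00043. Without libraries over 100 TPM of urothelial markers they were Cfd -0.0284, Pck1 0.0907, Pdk4 0.22, Pi16 -0.27 and Ucp1 2.55. That setting dropped CAC 2, 4 and 5 and NCAC 2, so only CAC 1 and 3 stood for CAC. Hp was -0.00094 without mitochondrially encoded genes and -0.0788 with median-ratio scaling. With 1 library left out, Col1a1 ranged from -0.34 to 0.80, Mt2 from -0.11 to 1.00, Hp from -0.17 to 0.34, Azgp1 from -0.0762 to 0.49, Fetub from -0.0632 to 0.23, Cfd from -0.0167 to 0.38 and Pdk4 from -0.90 to 0.0452. The median of all genes shifted by -0.10 with median-ratio scaling, -0.15 with library weights and -0.26 without CAC 1 and 5. The cause of these changes was not tested. Depth is unknown, so the precision of low values such as Xcl1 and Fetub cannot be given.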

Other observations

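Heat shock genes, a list chosen after the values were seen, summed to 3904, 1751, 1539, 1469 and 3542 TPM in CAC, against 2303, 2196, 2039, 2751 and 1954 TPM in NCAC and 2287, 2244, 1851, 2047 and 2077 TPM in mock fat. CAC 2, 3 and 4 were below every NCAC library, and CAC 1 and 5 above every one. Their chaperones fold and protect other proteins under heat and other stress.

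Cdsn, which encodes corneodesmosin of the outer skin, and H2-Q10, a secreted class I molecule of the major histocompatibility complex known from liver, both lie on chromosome 17 (chr17:35552128-35557180, plus strand, and chr17:35470089-35474563, plus strand, GRCm38). Both were high or low by library, and were named after their values were seen. Cdsn had 28.3, 57.2, 41.2, 49.9 and 23.8 TPM in the CAC libraries, against 1.31, 1.95, 0.264, 44.1 and 0.521 TPM in the NCAC libraries, and 64.4, 1.05, 57.4, 0.616 and 86.5 TPM in mock fat. H2-Q10 had 34.6, 88.5, 84.3, 77.7 and 15.5 TPM in the CAC libraries, against 1.89, 35.1, 2.13, 19.3 and 1.84 TPM in the NCAC libraries, and 73.5, 3.17, 47.4, 1.49 and 91.9 TPM in mock fat. NCAC 4 was high in Cdsn, and mock replicates 1, 3 and 5 were high in both genes.

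Uterine epithelium genes exceeded 100 TPM in sum in 2 of 5 CAC and 0 of 5 NCAC libraries at 2 weeks, and in 1 of 5 mock libraries. In later weeks they did so in 1 of 7 CAC libraries at 8 weeks, in 1 NCAC library each at 4 and 8 weeks and in 1 mock library each at 4, 6 and 8 weeks.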
